A study of Mus musculus with 6 samples.

Results

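Wnt ligands, their receptors, their secreted antagonists and the TCF/LEF factors that act downstream of them were examined in cultured mouse myoblasts, which descend from muscle stem cells and divide before they fuse into fibres. Members were chosen by gene symbol alone: the Wnt, Fzd, Sfrp, Dkk and Rspo genes, Lrp5, Lrp6, Axin2, Wif1, Znrf3, Rnf43, and the TCF/LEF genes Tcf7, Tcf7l1, Tcf7l2 and Lef1. The rule found 51 of the 54834 genes in the deposited table: 19 Wnt ligands, 10 Frizzled receptors with Lrp5 and Lrp6, 4 R-spondins, 9 secreted antagonists, 2 ubiquitin ligases, 4 TCF/LEF factors and Axin2. These primary myoblasts, of the genotype Pax7-ZSGreen, were kept in growth medium for more than 2 weeks at 20% (normoxia), 4% or 1% pO2 (chronic hypoxia). At each pO2 they received either 0.1% DMSO as vehicle or 1 μM PT2385 for 48 h. PT2385 is an inhibitor of HIF-2α that prevents its pairing with ARNT. RNA of several cultures was pooled for each of the 6 conditions, so each condition is 1 library, and neither the animals nor the cultures behind it can be told apart.

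Wnt ligands are lipid-modified secreted proteins that bind Frizzled receptors. Together with the co-receptors Lrp5 and Lrp6, Frizzleds stop the degradation of β-catenin, which then enters the nucleus and acts through TCF/LEF factors. Other Wnts, Wnt5a among them, act mostly through β-catenin-independent branches that control cell polarity, movement and calcium. R-spondins raise the amount of Frizzled at the cell surface by counteracting the ubiquitin ligases Znrf3 and Rnf43, whereas Sfrp, Dkk and Wif1 proteins block ligands or co-receptors. In muscle, Wnts are known to act on satellite cell self-renewal, on the migration of satellite cells and on myoblast differentiation.

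The deposited values were read as FPKM, that is, fragment counts corrected for transcript length and for the depth of the library, so levels can be compared between genes. Differences were estimated with limma on log2(FPKM + 1) over all 6 libraries, with pO2 and PT2385 as terms, for 11967 genes whose mean reached 1 FPKM. A gene was called where its p-value, adjusted over all these genes by the Benjamini-Hochberg method, was under 0.05. The error in this fit is how far the vehicle and PT2385 libraries at a pO2 depart from a difference shared by every pO2. It does not measure the spread between separately adapted cultures, so adjusted p-values compare these libraries, and whether PT2385 acts differently at different pO2 could not be tested. Because 1 is added before the log, folds of genes at low levels come out too small.

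The spacing of low values implied 19980000 to 23380000 fragments per library. The 9 HIF targets checked, among them Vegfa and Slc2a1, were all called higher at both hypoxic levels. Of 8 myoblast markers, 7 had a mean of at least 1 FPKM, whereas Myf5 stayed at or below 0.481 FPKM, and their summed level was 1552 to 1578 FPKM at 20%, 938.1 to 1041 at 4% and 999.8 to 1049 at 1% pO2. The 8 markers of differentiating myocytes summed to 38.1 to 59.7, 78.9 to 127.8 and 51.7 to 51.8 FPKM in the same order. The 6 leukocyte markers summed to 4.38 to 5.04, 93.6 to 103.4 and 20.7 to 22.9 FPKM, mostly Laptm5 at 4%, while the defining markers Ptprc and Adgre1 were at or below 0.00994 FPKM. The 10 fibroblast markers summed to 130.8 to 132.3, 104.5 to 107.9 and 166.7 to 166.8 FPKM, with Lum and Mfap5 at 0 in every library. Most of that sum is Col3a1, at 83.6 to 139 FPKM. Pdgfra, Dcn, Pi16 and Dpt each stayed at or below 0.425 FPKM in every library. Gsn was at 4.49 to 4.53, 14.5 to 18.2 and 14.2 to 14.4 FPKM, Cd34 at 0.349 to 0.387, 0.945 to 1.33 and 6.33 to 6.52, and Ly6a at 1.90 to 3.05, 3.84 to 5.16 and 6.33 to 6.86, each higher in all hypoxic libraries. The 6 mural or smooth muscle markers summed to 22.4 to 24.2, 31.8 to 38.5 and 39.9 to 43.2 FPKM, mostly Rgs5, with Myh11 at or below 0.0142 FPKM. Endothelial markers summed to at most 1.13 FPKM and Schwann markers to at most 0.875 FPKM in any library. The 4 adipocyte markers summed to 8.25 FPKM at 1% pO2 with PT2385, mostly Cidec, and to between 0 and 0.232 FPKM elsewhere. The part of these marker levels in the Wnt pathway results was not tested, and in such bulk RNA fewer cells of a type and less RNA per cell cannot be told apart.

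Of the 51 members, 20 had a mean of at least 1 FPKM and were tested: Wnt5a, Wnt7b, Wnt9a, Wnt10b, Rspo3, 8 Frizzleds, Lrp5, Lrp6, Znrf3 and the 4 TCF/LEF factors. None of the 9 secreted antagonists reached that mean. Wnt9a, Wnt10b and Rspo3, with normoxic means of 0.974, 0.465 and 0.296 FPKM, passed only through the hypoxic libraries, so their difference from normoxia is partly set by the filter. Rspo3 was also under 1 FPKM at 1% pO2 and passed through its 4% libraries alone. Its difference between 1% and 4% is thus partly set by the filter as well. Another 22 members stayed under 0.3 FPKM in every library, and 8 of these were listed at 0 throughout. Some zeros in the table may be failed estimates, since 125 genes are listed at 0 in 1 library and at 5 FPKM or more in another, so a zero is given here only as listed. The plot of expressed members by library shows Wnt7b above, and Wnt5a and Fzd4 below, their normoxic levels in every hypoxic library. For these genes the PT2385 libraries follow their vehicle libraries. Not every member does so: from 20% to 1% pO2, Lef1 went from 1.74 to 1.03 FPKM with vehicle and from 1.07 to 1.46 with PT2385. Fzd3 likewise fell with vehicle and rose with PT2385.

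**Figure D1:**
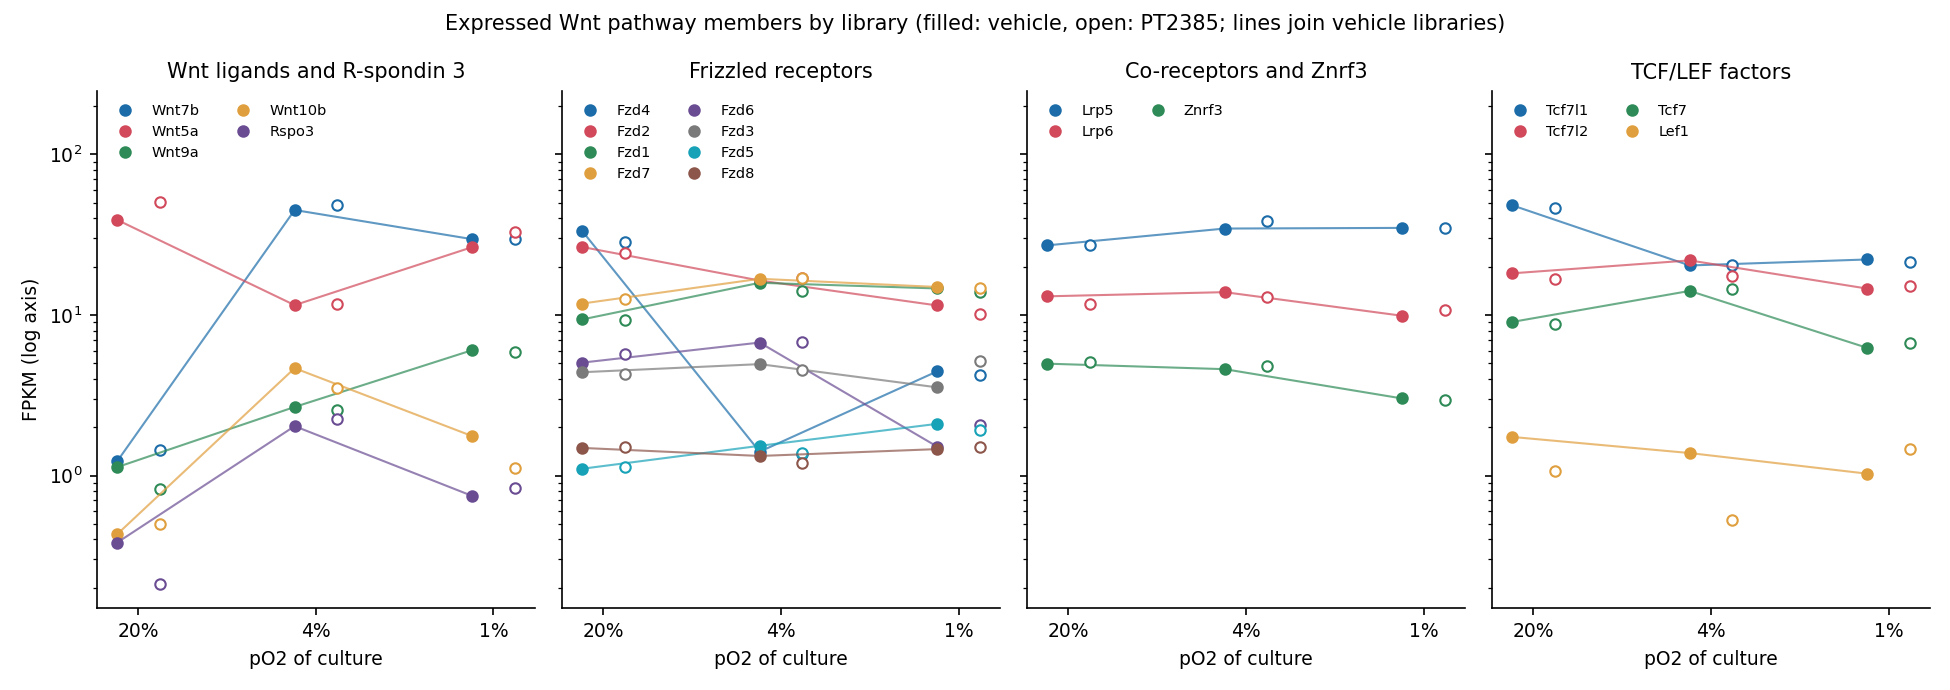
FPKM (log axis) of the 20 tested members at 20%, 4% and 1% pO2, in 4 panels for ligands with R-spondin 3, Frizzleds, co-receptors with Znrf3, and TCF/LEF factors. Filled points are vehicle libraries, open points PT2385 libraries, 1 library each, and lines join the vehicle libraries. Wnt7b rises from 1.22 to 45.1 FPKM between 20% and 4% pO2 with vehicle, and Fzd4 falls from 33.4 to 1.41.

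Of the 51 members, 34 had an entry among the RefSeq promoters (GRCm38.p6), with 43 start sites in all. Wnt7b, Wnt5a, Fzd2, Fzd6, Lrp5, Rspo3 and Znrf3 were among those without an entry, so their promoters were not examined. The bases before the RefSeq start are shown for 4 members whose level differed between normoxia and both hypoxic levels, 250 bases each, 5′ to 3′ on the gene's strand: Wnt9a, Wnt10b and Fzd1, which rose, and Fzd4, which fell. They were picked to show windows with and without the letters of the hypoxia response element that HIF proteins bind. Capitals mark these letters on either strand, which are ACGTG or GCGTG. They also mark the core that TCF/LEF factors bind, which is CTTTGA. On the opposite strand the first pair read CACGT or CACGC, the core reads TCAAAG, and in Wnt9a a match on each strand overlaps. The windows are chr11:59306680-59306929 (plus strand) for Wnt9a, chr15:98778151-98778400 (minus) for Wnt10b, chr5:4758217-4758466 (minus) for Fzd1 and chr7:89404116-89404365 (plus) for Fzd4. RefSeq and GENCODE starts differ for some genes, and 2 bases of the Wnt9a window and 11 of the Fzd4 window lie inside the GENCODE gene.
Wnt9a: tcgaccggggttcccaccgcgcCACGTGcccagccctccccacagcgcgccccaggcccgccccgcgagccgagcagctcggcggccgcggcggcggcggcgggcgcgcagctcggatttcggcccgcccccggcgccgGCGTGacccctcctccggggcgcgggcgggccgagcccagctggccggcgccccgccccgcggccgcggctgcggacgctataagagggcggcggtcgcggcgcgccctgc
Wnt10b: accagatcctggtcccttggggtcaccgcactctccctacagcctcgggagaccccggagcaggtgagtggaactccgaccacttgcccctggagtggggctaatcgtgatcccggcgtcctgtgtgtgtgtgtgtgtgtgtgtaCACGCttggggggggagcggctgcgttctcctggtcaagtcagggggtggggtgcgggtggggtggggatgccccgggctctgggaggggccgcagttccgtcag
Fzd1: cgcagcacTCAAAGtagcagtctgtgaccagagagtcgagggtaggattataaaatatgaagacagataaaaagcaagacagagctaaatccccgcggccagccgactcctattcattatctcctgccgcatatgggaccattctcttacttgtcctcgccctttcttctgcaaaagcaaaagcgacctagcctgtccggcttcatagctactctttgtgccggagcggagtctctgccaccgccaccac
Fzd4: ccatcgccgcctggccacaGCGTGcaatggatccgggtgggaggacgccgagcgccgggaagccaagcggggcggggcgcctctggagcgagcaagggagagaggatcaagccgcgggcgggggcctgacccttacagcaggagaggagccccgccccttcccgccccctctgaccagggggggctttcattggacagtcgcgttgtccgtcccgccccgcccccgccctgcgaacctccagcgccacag
Wnt9a holds 3 matches to ACGTG or GCGTG, Wnt10b and Fzd4 hold 1 each, and Fzd1 holds none of them but 1 match to CTTTGA. Among the other members with an entry that were called against normoxia, Fzd5, Fzd7 and both starts of Tcf7 hold no ACGTG or GCGTG, and Tcf7l1 holds 1, in a window that lies mostly inside its GENCODE gene. Over all 32851 RefSeq promoters of the same length, 12679 (38.6%) hold ACGTG or GCGTG at least once, and of the 43 member promoters 23 (53.5%) do. CTTTGA is in 4544 of all promoters (13.8%) and in 5 of the 43. A match is a run of letters and was not tested as a binding site.

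Wnt7b (chr15:85535437-85582473, minus strand, GRCm38), a ligand that can signal through β-catenin, was the member that rose most. It stood at 1.22 and 1.43 FPKM at 20% pO2 (vehicle, then PT2385), at 45.1 and 48.7 FPKM at 4%, and at 29.7 and 29.8 FPKM at 1%. All hypoxic libraries lay far above both normoxic ones, and the 1% libraries lay below the 4% libraries. In vehicle this is 36.8-fold higher FPKM at 4% and 24.2-fold at 1%. The log2(FPKM + 1) difference was 4.36 ± 0.07 (SE) at 4% (limma adjusted p = 2.27e-05) and 3.72 ± 0.07 at 1% (limma adjusted p = 1.8e-05), and 1% against 4% gave -0.64 ± 0.07 (limma adjusted p = 0.00221).

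Wnt5a (chr14:28504750-28527448, plus strand, GRCm38), the ligand best known for β-catenin-independent signalling, went the other way. Its level was 39.1 and 50.4 FPKM at 20%, 11.5 and 11.8 FPKM at 4%, and 26.5 and 32.7 FPKM at 1% pO2. The groups do not overlap, and the moderate level of hypoxia had the lowest values. Its log2(FPKM + 1) difference was -1.84 ± 0.09 at 4% (limma adjusted p = 0.000162) and -0.58 ± 0.09 at 1% (limma adjusted p = 0.00589), while 1% exceeded 4% by 1.27 ± 0.09 (limma adjusted p = 0.00105). The call at 1% against 20% was lost without the normoxic PT2385 library or without the 1% vehicle library (limma adjusted p up to 0.0628).

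Wnt9a and Wnt10b rose at both hypoxic levels but with a different order of the levels. Wnt9a was at 1.13 and 0.82 FPKM at 20%, 2.67 and 2.54 FPKM at 4%, and 6.04 and 5.89 FPKM at 1% pO2. It was thus highest at the lowest pO2, although its tests against 20% carry the limit of the filter given above, with log2(FPKM + 1) differences of 0.87 ± 0.12 at 4% (limma adjusted p = 0.00315), 1.82 ± 0.12 at 1% (limma adjusted p = 0.000389) and 0.95 ± 0.12 for 1% against 4% (limma adjusted p = 0.00369). Wnt10b, a ligand known to act through β-catenin and to hold back adipogenesis, was at 0.43 and 0.50 FPKM at 20%, 4.66 and 3.52 FPKM at 4%, and 1.76 and 1.11 FPKM at 1%. Like Wnt7b it peaked at 4%. Its tests against 20% also carry the limit of the filter. The differences were 1.79 ± 0.17 at 4% (limma adjusted p = 0.00103), 0.72 ± 0.17 at 1% (limma adjusted p = 0.0206) and -1.07 ± 0.17 for 1% against 4% (limma adjusted p = 0.00732). Its call at 1% against 20% was lost when the normoxic vehicle library or either 1% library was left out (limma adjusted p up to 0.122), and its call at 1% against 4% without the 1% PT2385 library (limma adjusted p = 0.0565). Without a filter on low values its adjusted p at 1% against 20% was 0.0787.

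The make-up of the summed Wnt FPKM changed more than the sum. The 19 ligands together reached 42.8 and 53.9 FPKM at 20%, 65.6 and 68.7 at 4%, and 67.0 and 73.9 at 1% pO2. Wnt5a supplied 91.4% and 93.4% of it at 20%, 17.5% and 17.1% at 4%, and 39.5% and 44.3% at 1%. Over the same libraries Wnt7b supplied 2.86% and 2.66%, 68.7% and 70.9%, and 44.3% and 40.3%. At 20% pO2 the sum was almost wholly Wnt5a, at 4% mostly Wnt7b, and at 1% the pair had similar shares. These shares are descriptions of 6 single libraries, with no test.

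**Figure D2:**
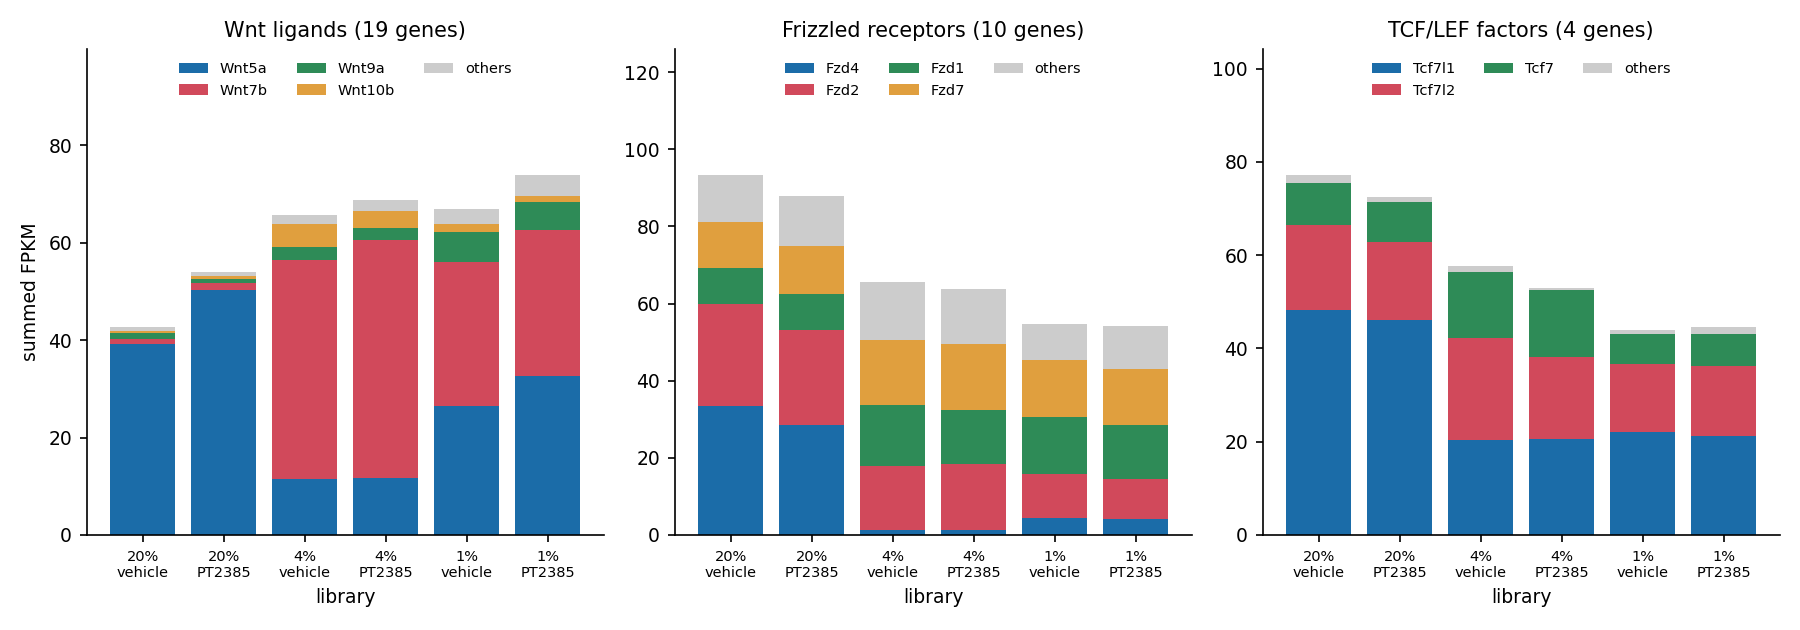
Summed FPKM of the 19 Wnt ligands, the 10 Frizzled receptors and the 4 TCF/LEF factors in each of the 6 libraries (stacked bars from 0, coloured by gene, remaining members in grey). Wnt5a gives 91.4% of the Wnt sum at 20% pO2 with vehicle and Wnt7b 68.7% at 4%, Fzd4 gives 35.8% of the Frizzled sum at 20% and 2.15% at 4%, and Tcf7l1 gives 62.5% of the TCF/LEF sum at 20% and 35.2% at 4%.

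The remaining 15 ligands were weak. Wnt11, which acts mainly through polarity signalling, had a mean just under the filter: 0.131 and 0.0945 FPKM at 20%, 0.592 and 0.664 FPKM at 4%, and 1.55 and 2.89 FPKM at 1% pO2. Both libraries were thus higher at each lower pO2, and without the filter its difference at 1% was 1.5 ± 0.21 (limma adjusted p = 0.0252), against 0.55 ± 0.21 at 4% (limma adjusted p = 0.175). Wnt5b, a close relative of Wnt5a, was between 0.525 and 0.917 FPKM, highest in both 1% libraries. Wnt2 was listed at 0 in both normoxic libraries, at 0.185 and 0.24 FPKM at 4%, and at 0.191 and 0.342 FPKM at 1%, which corresponds to 9 to 16 fragments per hypoxic library. Its difference without the filter was 0.34 ± 0.06 at 1% (limma adjusted p = 0.0371) and 0.28 ± 0.06 at 4% (limma adjusted p = 0.0517). Wnt1, Wnt2b, Wnt3, Wnt4, Wnt6, Wnt8a, Wnt9b, Wnt10a and Wnt16 stayed under 0.3 FPKM, and Wnt3a, Wnt7a and Wnt8b were listed at 0 in every library.

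Among the receptors, Fzd4 (chr7:89404355-89413134, plus strand, GRCm38) fell most. Fzd4 binds Wnts and also Norrin, the product of Ndp, whose level here was at most 0.0248 FPKM. Its level was 33.4 and 28.6 FPKM at 20%, 1.41 and 1.36 FPKM at 4%, and 4.46 and 4.24 FPKM at 1% pO2. Fragments behind these values numbered 4988 and 4280 at 20%, 216 and 178 at 4%, and 660 and 622 at 1%, so counting error is small beside the change. Normoxia exceeded 4% by 23.72-fold in vehicle and 21.05-fold with PT2385, and 1% by 7.49-fold and 6.75-fold in FPKM. The log2(FPKM + 1) difference was -3.74 ± 0.09 at 4% (limma adjusted p = 3.18e-05) and -2.58 ± 0.09 at 1% (limma adjusted p = 7.73e-05). The 1% libraries lay above the 4% libraries by 1.17 ± 0.09 (limma adjusted p = 0.00114).

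Fzd2 also fell, from 26.5 and 24.5 FPKM at 20% to 16.4 and 17 FPKM at 4% and 11.5 and 10.2 FPKM at 1% pO2. It was lower at each lower pO2, by -0.58 ± 0.07 at 4% (limma adjusted p = 0.00258), -1.16 ± 0.07 at 1% (limma adjusted p = 0.000364) and -0.58 ± 0.07 for 1% against 4% (limma adjusted p = 0.00387). Fzd6, a receptor with a known part in tissue polarity, was at 5.05 and 5.73 FPKM at 20%, 6.73 and 6.75 FPKM at 4%, and 1.51 and 2.06 FPKM at 1%. Only the 1% libraries were low, with a difference from 20% of -1.20 ± 0.11 (limma adjusted p = 0.00105) and from 4% of -1.48 ± 0.11 (limma adjusted p = 0.00111), whereas 4% against 20% gave 0.28 ± 0.11 (limma adjusted p = 0.0873).

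Fzd1 and Fzd7, the latter known as the receptor of Wnt7a on satellite cells, rose modestly. Fzd1 was at 9.38 and 9.33 FPKM at 20%, 15.9 and 14.1 FPKM at 4%, and 14.6 and 13.9 FPKM at 1%, and its differences were 0.62 ± 0.07 (limma adjusted p = 0.00179) and 0.56 ± 0.07 (limma adjusted p = 0.00274). For Fzd7 the levels were 11.8 and 12.5, 16.8 and 17, and 14.9 and 14.7 FPKM in the same order. Its difference was 0.45 ± 0.06 at 4% (limma adjusted p = 0.00363) and 0.27 ± 0.06 at 1% (limma adjusted p = 0.0205), and the latter was lost without any one of the 20% and 1% libraries (limma adjusted p up to 0.145). Fzd5 was low, at 1.10 and 1.13 FPKM at 20%, 1.53 and 1.39 FPKM at 4%, and 2.1 and 1.93 FPKM at 1%, and passed at 1% only (0.51 ± 0.14, limma adjusted p = 0.0304). That call was also lost without any one of the 20% and 1% libraries (limma adjusted p up to 0.128) and without the filter (limma adjusted p = 0.0736). Fzd3 was at 4.40 and 4.31 FPKM at 20%, 4.94 and 4.53 FPKM at 4%, and 3.54 and 5.16 FPKM at 1%. For Fzd8 the levels were 1.49 and 1.5, 1.32 and 1.20, and 1.46 and 1.51 FPKM in the same order, and neither gene was called in any comparison. Fzd9 was between 0.207 and 0.688 FPKM, lowest in both normoxic libraries, and Fzd10 was listed at 0 throughout.

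The 10 Frizzleds summed to 93.3 and 87.9 FPKM at 20%, 65.6 and 63.8 FPKM at 4%, and 54.8 and 54.3 FPKM at 1% pO2. The share of Fzd4 in that sum was 35.8% and 32.5% at 20%, 2.15% and 2.13% at 4%, and 8.13% and 7.81% at 1%. Fzd4 was the most abundant Frizzled in both normoxic libraries. In hypoxia Fzd7, Fzd2 and Fzd1 stood close together at 4%, and Fzd7 and Fzd1 at 1%.

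Of the co-receptors, Lrp5 was called higher at both hypoxic levels. Lrp5 was at 27.1 and 27.4 FPKM at 20%, 34.5 and 38.5 FPKM at 4%, and 34.9 and 34.6 FPKM at 1% pO2, without overlap between normoxia and hypoxia. The differences were 0.41 ± 0.06 at 4% (limma adjusted p = 0.0046) and 0.34 ± 0.06 at 1% (limma adjusted p = 0.00903). Without the normoxic PT2385 library the adjusted p at 4% was 0.0507, and at 1% the call was lost without either normoxic library or the 1% vehicle library (limma adjusted p up to 0.0792). Lrp6 was at 13.1 and 11.7 FPKM at 20%, 13.9 and 12.9 FPKM at 4%, and 9.88 and 10.8 FPKM at 1%. It was called only for 1% against 4% (-0.35 ± 0.09, limma adjusted p = 0.0279), a call lost in all 6 fits with a library left out (limma adjusted p up to 0.171) and without the filter (limma adjusted p = 0.0845).

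Of the R-spondins, Rspo3 was the one with a mean over 1 FPKM. It was at 0.382 and 0.21 FPKM at 20%, 2.03 and 2.27 FPKM at 4%, and 0.747 and 0.841 FPKM at 1% pO2, so the 4% libraries stood apart. Its tests that involve 4% carry the limit of the filter given above. The difference was 1.28 ± 0.17 at 4% (limma adjusted p = 0.00295) and 0.47 ± 0.17 at 1% (limma adjusted p = 0.0729), with -0.81 ± 0.17 for 1% against 4% (limma adjusted p = 0.0167). The last of these was lost without the 4% PT2385 library or either 1% library (limma adjusted p up to 0.0831). Rspo1 was listed at 0 in both normoxic libraries, at 1.08 and 0.421 FPKM at 4%, and at 0.0532 and 0.0268 FPKM at 1%, and without the filter its 4% difference of 0.78 ± 0.17 did not pass (limma adjusted p = 0.0567). Rspo2 stayed under 0.3 FPKM and Rspo4 was listed at 0. Znrf3, which removes Frizzleds from the cell surface, was at 4.97 and 5.09 FPKM at 20%, 4.6 and 4.82 FPKM at 4%, and 3.02 and 2.96 FPKM at 1%. It was lower at 1% than at 20% (-0.60 ± 0.09, limma adjusted p = 0.00543) and than at 4% (-0.52 ± 0.09, limma adjusted p = 0.0105). The first of these was lost without either normoxic library or the 1% PT2385 library (limma adjusted p up to 0.0545), the second without the 4% PT2385 library or either 1% library (limma adjusted p up to 0.0847). Its relative Rnf43 was listed at 0 in every library.

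Most secreted antagonists were near the limit of detection, and Sfrp1, which binds Wnts and Frizzleds, had the highest mean of them. Sfrp1 was at 0.25 and 0.177 FPKM at 20%, 1.17 and 0.905 FPKM at 4%, and 1.43 and 1.71 FPKM at 1% pO2. These values rest on 24 and 17, 115 and 76, and 136 and 161 fragments, and the 95% Poisson intervals of normoxia and hypoxia do not overlap. Without the filter its difference was 0.74 ± 0.13 at 4% (limma adjusted p = 0.0389) and 1.08 ± 0.13 at 1% (limma adjusted p = 0.0197). Sfrp2 was highest at 1%, at 0.64 and 0.838 FPKM, against 0.72 and 0.31 FPKM at 20% and 0.117 and 0.11 FPKM at 4%, but the normoxic and 1% libraries overlapped. Sfrp4 reached 0.329 FPKM in the 1% PT2385 library. Dkk1, Dkk2, Dkk3 and Wif1 stayed under 0.3 FPKM, and Dkk4 and Sfrp5 were listed at 0 in every library.

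**Figure D3:**
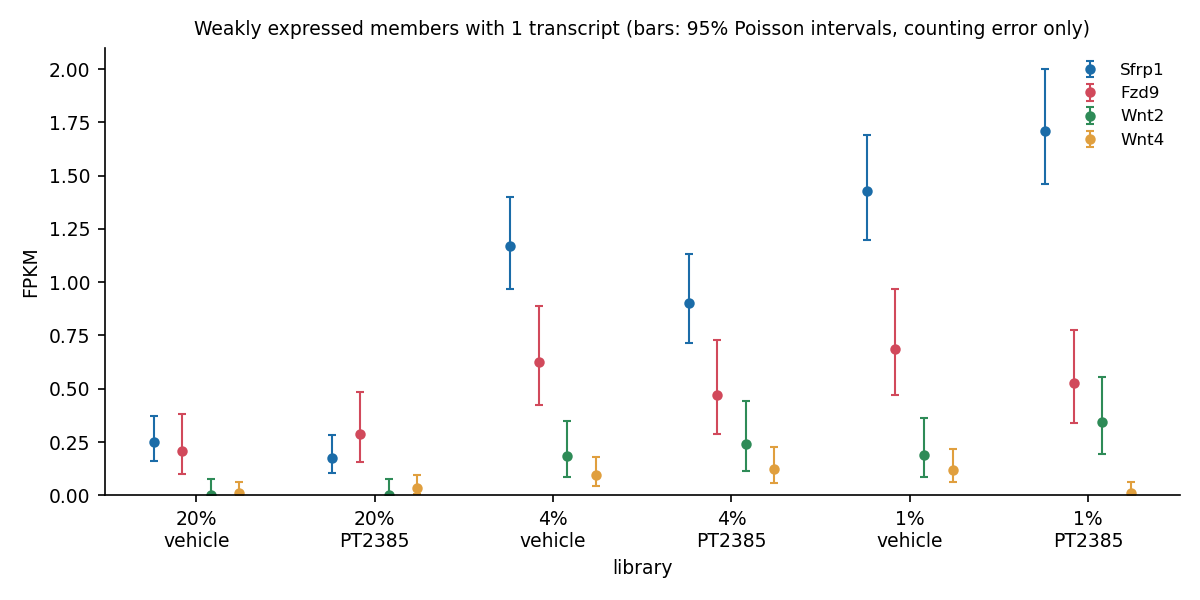
FPKM of 4 weakly expressed members with a single annotated transcript, in each of the 6 libraries, with 95% Poisson intervals that cover counting error only. Sfrp1 is at 0.25 FPKM or less in both normoxic libraries and at 0.905 or more in the hypoxic ones, and Wnt2 is listed at 0 in normoxia.

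The TCF/LEF factors carry β-catenin to its target genes. Tcf7l1 (also called Tcf3), which acts mostly as a repressor, was the most abundant of them in normoxia, at 48.2 and 46.1 FPKM, and fell to 20.3 and 20.6 FPKM at 4% and to 22.2 and 21.2 FPKM at 1% pO2. The 4 hypoxic libraries lay between 20.3 and 22.2 FPKM, all below normoxia, with differences of -1.17 ± 0.05 at 4% (limma adjusted p = 0.000133), -1.09 ± 0.05 at 1% (limma adjusted p = 0.000177) and 0.08 ± 0.05 between them (limma adjusted p = 0.273). Tcf7 went up at 4% and down at 1%, with 9.05 and 8.73 FPKM at 20%, 14.1 and 14.4 FPKM at 4%, and 6.24 and 6.71 FPKM at 1%. Its differences were 0.63 ± 0.07 (limma adjusted p = 0.00203), -0.40 ± 0.07 (limma adjusted p = 0.00921) and, for 1% against 4%, -1.03 ± 0.07 (limma adjusted p = 0.00103). The fall at 1% was lost without either normoxic library or without the 1% vehicle library (limma adjusted p up to 0.0886).

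Tcf7l2 was at 18.2 and 16.6 FPKM at 20%, 21.9 and 17.5 FPKM at 4%, and 14.6 and 15.1 FPKM at 1%. It differed only for 1% against 4% (-0.38 ± 0.10, limma adjusted p = 0.0292), and lost that call without either normoxic library, the 4% vehicle or the 1% vehicle library (limma adjusted p up to 0.17), without the filter (limma adjusted p = 0.0993) and without a variance trend (limma adjusted p = 0.0529). Lef1 was low, at 1.74 and 1.07 FPKM at 20%, 1.38 and 0.527 FPKM at 4%, and 1.03 and 1.46 FPKM at 1%, and was not called in any comparison. The 4 factors together summed to 77.2 and 72.6 FPKM at 20%, 57.7 and 53.0 FPKM at 4%, and 44.0 and 44.5 FPKM at 1% pO2. The share of Tcf7l1 was 62.5% and 63.6%, 35.2% and 38.8%, and 50.3% and 47.7%.

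Axin2, a commonly used target gene of β-catenin that is itself a brake on the pathway, was listed at 0 in both normoxic libraries, at 0.342 and 0.021 FPKM at 4%, and at 0.0236 and 0.131 FPKM at 1% pO2. Without the filter its difference was 0.23 ± 0.15 at 4% (limma adjusted p = 0.395) and 0.11 ± 0.15 at 1% (limma adjusted p = 0.7). Among the other targets, Notum reached at most 0.136 FPKM and Sp5 0.275 FPKM, both under the filter. Nkd1, also under it, was at 0.173 and 0.2015 FPKM at 20%, 0.657 and 0.927 at 4%, and 0.644 and 0.3765 at 1%. Lgr5 was at 0.677 and 0.5955, 1.163 and 0.952, and 0.622 and 1.019 FPKM in the same order. Nkd2 was lower at 4%, with 0.551 and 0.301, 0.146 and 0.114, and 0.471 and 0.362 FPKM. These differences were not tested.

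Over the tested members, 8 of 20 were called higher and 4 lower at 4% against 20% pO2, where 27.5% of all tested genes were called higher and 22.7% lower. The 8 were Wnt7b, Wnt9a, Wnt10b, Rspo3, Fzd1, Fzd7, Lrp5 and Tcf7, and the 4 were Wnt5a, Fzd4, Fzd2 and Tcf7l1. At 1% against 20% pO2, 7 were called higher and 7 lower, against 25.0% and 21.9% of all tested genes. The higher ones were Wnt7b, Wnt9a, Wnt10b, Fzd1, Fzd5, Fzd7 and Lrp5, and the lower ones Wnt5a, Fzd2, Fzd4, Fzd6, Tcf7l1, Tcf7 and Znrf3. For 1% against 4% pO2 the counts were 3 higher and 9 lower, where all genes gave 20.7% and 22.3%. The 3 were Wnt5a, Wnt9a and Fzd4. The median member difference was 0.19 at 4% and -0.05 at 1%, against 0.02 and 0.00 over all tested genes. The comparisons with 20% share the normoxic libraries, and the members that passed the filter include those that passed through hypoxia alone, so nothing about the pathway as a whole is read from these counts. In the fits with a library left out, 11 of the 12 calls at 4%, 7 of the 14 at 1% and 7 of the 12 between 1% and 4% were kept every time. The count at 1% against 20% was 8 without either normoxic library or without the 1% vehicle library.

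No member was called for PT2385: 0 of 20 were higher and 0 lower in limma, where 0% and 0% of all tested genes were called. At an unadjusted p under 0.05 the test gave 1 member higher and 0 lower, Wnt5a being the 1, and 841 and 613 of all tested genes. Wnt5a was 0.36 higher with PT2385 at 20% pO2, 0.03 at 4% and 0.30 at 1% on the log2(FPKM + 1) scale, and 0.23 ± 0.08 in the fit (limma adjusted p = 0.378). Of the 60 differences between PT2385 and vehicle at a single pO2, 7 were 0.3 or more in size. They ranged from -0.64 for Lef1 at 4% to 0.44 for Fzd3 at 1%, and 6 of 20 members had the same sign at every pO2. Each is a difference of 1 library from another, with no replicate check. Wnt7b differed by 0.13, 0.11 and 0.01, and Fzd4 by -0.22, -0.03 and -0.06, at 20%, 4% and 1% pO2. The differences by oxygen for both genes were larger than these at each treatment.

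**Figure D4:**
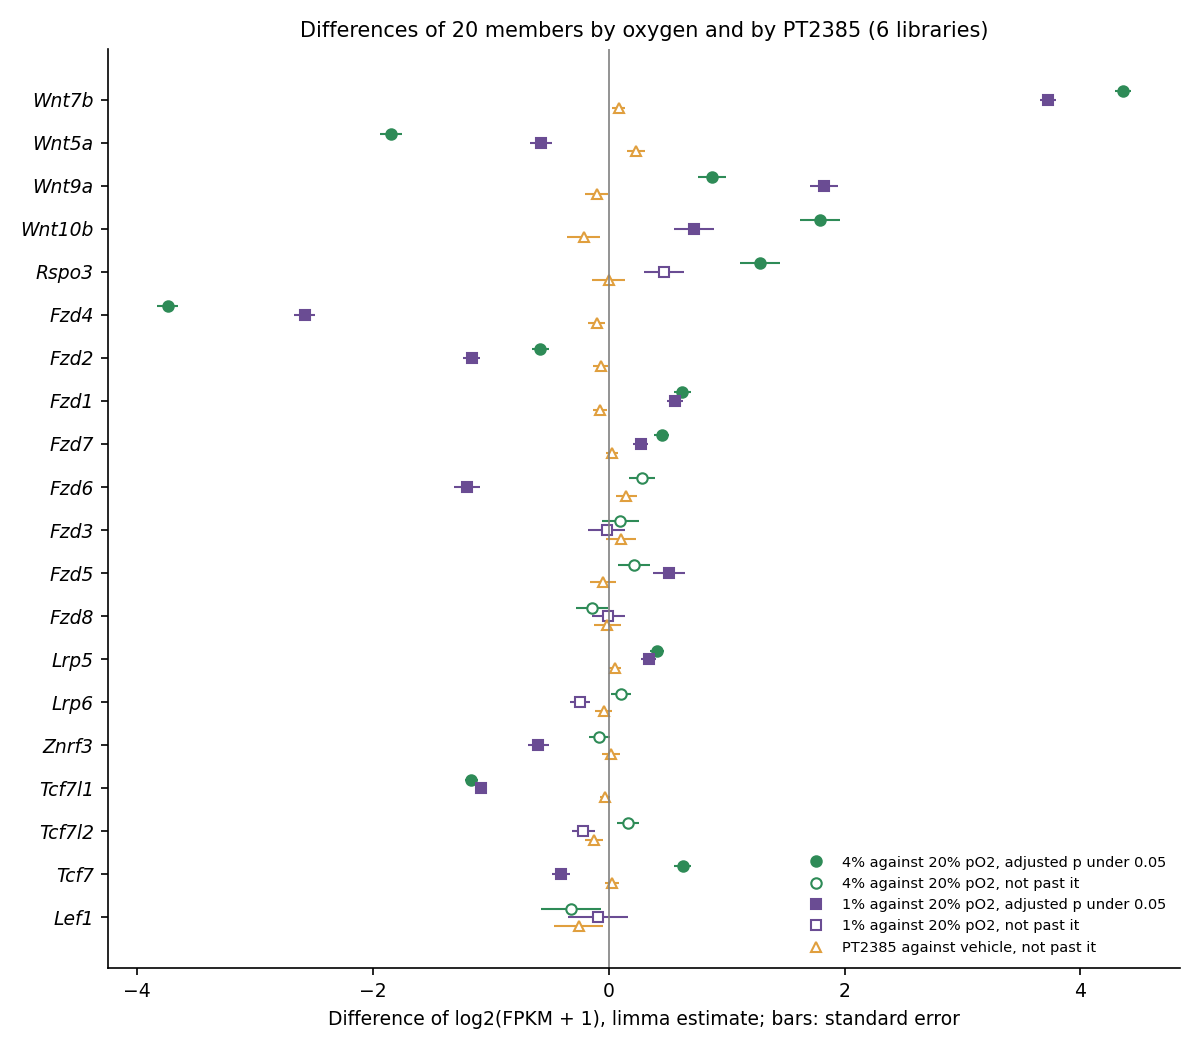
Differences of log2(FPKM + 1) for the 20 tested members, from the limma fit to 6 libraries, with bars of 1 SE: circles for 4% against 20% pO2, squares for 1% against 20%, triangles for PT2385 against vehicle. Filled symbols passed the adjusted p of 0.05. Wnt7b lies at 4.36 and 3.72 and Fzd4 at -3.74 and -2.58 for oxygen, and no triangle is filled.

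The other genes of the pathway were taken from lists by role. Of 9 tested surface modulators and co-receptors, 1 was called higher and 4 lower both at 4% and at 1% pO2. Tspan12, a tetraspanin that works with Fzd4 in Norrin signalling, was at 34.1 and 30.5 FPKM at 20%, 9.06 and 8.50 FPKM at 4%, and 15.6 and 15.8 FPKM at 1%. Like Fzd4 it was lowest at 4%, with differences of -1.76 ± 0.07 (limma adjusted p = 8.29e-05) and -0.99 ± 0.07 (limma adjusted p = 0.000453). Gpc4, a glypican that binds Wnts, was at 12 and 11.5 FPKM at 20%, 0.19 and 0.323 FPKM at 4%, and 5.74 and 5.16 FPKM at 1%. Ryk and Ptk7, receptors that bind or modify Wnt signalling outside the Frizzled family, differed by -0.86 ± 0.05 and -0.53 ± 0.04 at 4% and by -0.60 ± 0.05 and -0.39 ± 0.04 at 1%. Gpc4, Ryk and Ptk7 were lowest at 4% too, so this order was not particular to Tspan12 and Fzd4. Ror1 and Ror2, further receptors of Wnt5a, were under 0.3 FPKM in every library. The gene that rose was Lgr6, a receptor of R-spondins, at 2.04 and 1.69 FPKM at 20%, 9.48 and 7.43 FPKM at 4%, and 8.13 and 6.50 FPKM at 1%.

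**Figure D5:**
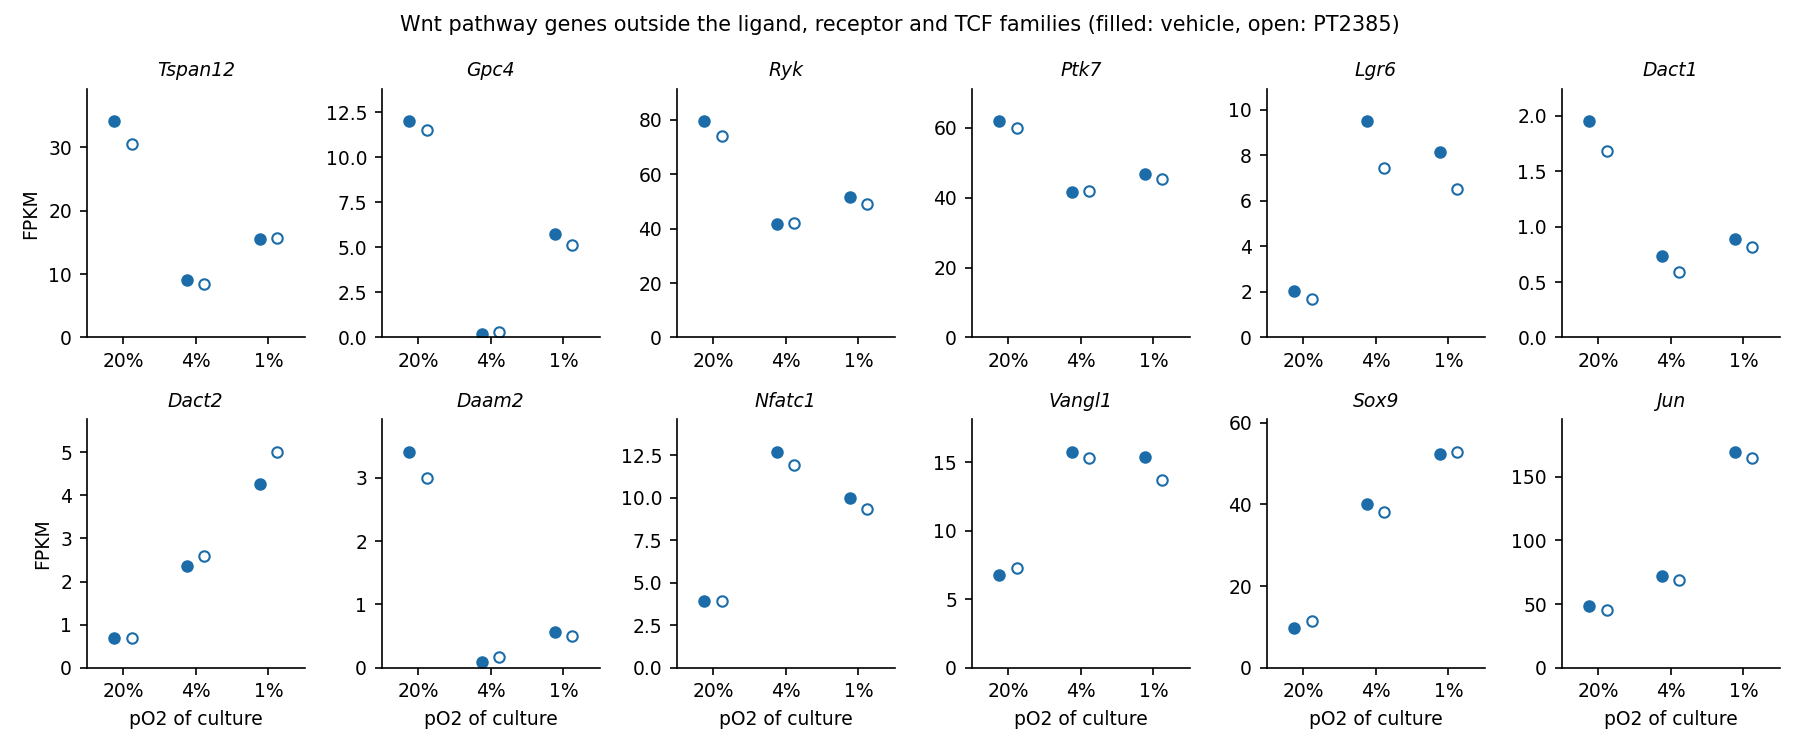
FPKM (each axis from 0) of 12 Wnt pathway genes outside the ligand, receptor and TCF families at 20%, 4% and 1% pO2, 1 library per point, filled for vehicle and open for PT2385. Tspan12 is between 30.5 and 34.1 FPKM at 20% pO2 and at or below 9.06 at 4%, and Lgr6 is at or below 2.04 at 20% and at or above 6.50 in hypoxia.

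Of the 2 tested genes of Wnt secretion, Wls, which carries Wnts to the cell surface, rose at 4% (0.43 ± 0.06, limma adjusted p = 0.00376) and at 1% (0.32 ± 0.06, limma adjusted p = 0.0113), and Porcn, which attaches their lipid, fell at 4% (-0.46 ± 0.13, limma adjusted p = 0.0332). Of 20 genes of the cytoplasmic core, 10 were called higher and 3 lower at 4%, and 5 and 4 at 1%. Dact2, a Dishevelled-binding protein, rose by 1.04 ± 0.12 and 1.74 ± 0.12, while its relative Dact1 differed by -0.76 ± 0.15 and -0.60 ± 0.15. Dact2, at 0.691 and 0.682 FPKM at 20% pO2, passed the filter only through hypoxia, and Dact1 only through normoxia. Their differences from normoxia are thus partly set by the filter. Ctnnb1, which encodes β-catenin, was between 315.2 and 401 FPKM and was not called against 20% at either level. It was called higher at 1% than at 4% (0.24 ± 0.06, limma adjusted p = 0.0308). Of 13 nuclear cofactors, 6 were called higher and 2 lower at 4%, against 0 and 6 at 1%. Tle3, a Groucho corepressor that binds TCF/LEF factors, rose at 4% (0.83 ± 0.05, limma adjusted p = 0.000204), with 0.01 ± 0.05 at 1% (limma adjusted p = 0.931). Its relatives Tle1 and Tle4 were the 2 called lower at 4%. Tle1 differed by -0.37 ± 0.06 at both levels (limma adjusted p = 0.00624 and 0.00653), and Tle4 by -0.68 ± 0.13 (limma adjusted p = 0.00983) and -0.57 ± 0.13 (limma adjusted p = 0.0186). Bcl9, which binds β-catenin, fell at 1% (-0.60 ± 0.07, limma adjusted p = 0.00256). The largest difference of this list at 4% was that of Cbx5, with 1.02 ± 0.06 (limma adjusted p = 0.000275), against -0.21 ± 0.06 at 1% (limma adjusted p = 0.0398). Ep300 gave 0.67 ± 0.09 at 4% (limma adjusted p = 0.00262) and -0.33 ± 0.09 at 1% (limma adjusted p = 0.0271).

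Of 17 genes of the planar polarity and calcium branch, 10 were called higher and 3 lower at 4%, and 6 and 3 at 1%. Vangl1, a core polarity protein, differed by 1.05 ± 0.08 and 0.96 ± 0.08, and Nfatc1, a calcium-regulated transcription factor, by 1.43 ± 0.07 and 1.11 ± 0.07. Its relative Nfatc4 was called higher at 4% (0.95 ± 0.16, limma adjusted p = 0.00646) but lower at 1% (-0.60 ± 0.16, limma adjusted p = 0.0298). Daam2, a formin that binds Dishevelled, fell from 3.41 and 2.99 FPKM at 20% to 0.0968 and 0.172 FPKM at 4% and 0.563 and 0.506 FPKM at 1%. It passed the filter only through normoxia, so its difference is partly set by the filter. Its relative Daam1 was called higher at both levels, by 0.67 ± 0.06 and 0.48 ± 0.06. Of 11 tested target genes of β-catenin and TCF, 5 were called higher and 1 lower at 4%, and 5 and 3 at 1%, Znrf3, Tcf7 and Lef1 being counted both here and among the members. Sox9 was at 9.85 and 11.4 FPKM at 20%, 40.1 and 38.1 FPKM at 4%, and 52.3 and 52.9 FPKM at 1%. Jun rose by 0.57 ± 0.04 and 1.80 ± 0.04, and Ccnd1, which encodes cyclin D1, by 0.48 ± 0.04 at 1% alone. Myc and Cd44 were also called higher at both levels. Myc differed by 0.68 ± 0.08 and 0.82 ± 0.08, and Cd44 by 0.35 ± 0.04 and 0.56 ± 0.04. The target called lower at 4% was Wisp1, at 15.3 and 11.4 FPKM at 20%, 10.1 and 8.65 FPKM at 4%, and 8.39 and 6.64 FPKM at 1%. Its differences were -0.46 ± 0.08 (limma adjusted p = 0.00724) and -0.74 ± 0.08 (limma adjusted p = 0.0016). Many of these targets also answer to other pathways. Each list had a share of called genes that can be read against the 27.5% and 22.7% of all genes at 4% and the 25.0% and 21.9% at 1%. Dact1, Dact2 and Daam2, which passed the filter through normoxia or hypoxia alone, are counted in these shares.

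For 10 members, exon bases are shared with a gene on the opposite strand, 358 of them for Wnt5a and 324 for Wnt7b. Whether strand was used in counting is not given in the sources used here, so reads over these bases cannot be told apart. The partner genes had at most 0.662 FPKM in any library.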

How the data were processed

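RNA-seq of 6 mouse myoblast libraries, 1 per condition by the sample labels, was analysed. The authors deposited a single table, whose values were read as FPKM: no source used here states the unit, and the submitters' processing notes list Cuffdiff 2.2.1 beside HISAT2 2.1.0 and SAMtools 1.3.1. The supplementary methods name TopHat2 and GRCm38 gene models. Values were used with no further scaling. limma 3.58.1 (R 4.3.3) was fitted to log2(FPKM + 1) with pO2 and treatment as terms, a variance trend and 2 residual degrees of freedom, for genes with a mean of at least 1 FPKM, and was tested on simulated data. Fragments were estimated from the spacing of low values, of which 90.8% to 92.7% lay within 0.1 of a whole fragment. Poisson intervals are exact and at 95%. Members with a mean of at least 1 FPKM were named with every value, and weaker ones with values where a library reached 0.3 FPKM. Other pathway genes were named where called, at most 6 per list and not always those with the largest differences. Ctnnb1 and the untested Ndp, Ror1, Ror2, Notum, Sp5, Nkd1, Nkd2 and Lgr5 were named after their values were seen. The members and lists were chosen with earlier results of these data known. Positions came from GENCODE M21 and promoters from RefSeq. Alternatives were another pseudocount, other filters, rescaling, other variance models and leaving out each library.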

Additional observations from a re-analysis of the deposited data

How the results depend on the processing

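No member difference that was called, in the fit as reported or in an alternative, changed sign. Of the differences not called, 14 changed sign in at least 1 alternative: Fzd3 at 4% against 20%, Fzd3, Fzd8 and Lef1 at 1% against 20%, Fzd1, Fzd3, Lef1 and Lrp5 at 1% against 4%, and Fzd3, Fzd7, Fzd8, Lrp6, Rspo3 and Tcf7 for PT2385. Their size was at most 0.23 as reported and at most 0.31 after the change, the latter for Lef1 without the 1% vehicle library. Requiring a mean of at least 5 FPKM left 11 members to test, and the calls were then 9 at 1% against 20% pO2 and 7 at 1% against 4%. With a library left out in turn, which leaves 1 residual degree of freedom and lets a lone library vary like the others, the calls numbered 11 to 12 at 4% against 20%, 8 to 14 at 1% against 20%, 8 to 10 at 1% against 4%, and 0 for PT2385. A pseudocount of 0.1, rescaling by the median ratio and a robust fit gave the same 12, 14, 12 and 0 calls, as did leaving out the genes listed at 0 in a library and at 5 FPKM or more in another, an alternative chosen after seeing the data. Rescaling moved no library by more than 0.0242 in size on the log2 scale. With no variance trend Fzd5 passed at 4% against 20% (limma adjusted p = 0.0489) and at 1% against 4% (limma adjusted p = 0.0288), and Rspo3 at 1% against 20% (limma adjusted p = 0.0252). The fit has pO2 as a term, so vehicle and PT2385 libraries are set against each other within a pO2, and the labels give no replicate numbers to pair by. Each condition is a single pooled library, the unit of the table is inferred, PT2385 was given to cultures at every pO2 without replicates, and differences of weakly expressed members rest on few fragments.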
